A study of Mus musculus with 18 samples.

Results

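The replication-dependent histone genes encode the linker histone H1 and the core histones H2A, H2B, H3 and H4. They were taken as every row of the deposited count table whose symbol begins with Hist1h, Hist2h, Hist3h or Hist4h followed by a histone class, with 3 annotated pseudogenes left out. This gave 67 of the 55536 rows. They comprised 6 H1, 18 H2A, 18 H2B, 12 H3 and 13 H4 genes. On the GRCm38 build, 54 lie in the Hist1 cluster (chr13:21715763-23934851), 10 in Hist2 (chr3:96219865-96270132), 2 in Hist3 (chr11:58948920-58956830) and 1, Hist4h4, at chr6:136801553-136804415. Of the 67, 64 have a single coding exon.

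The RNA came from immortalised mouse embryonic fibroblasts (MEFs), a culture model of connective tissue cells, as wild type (WT), as a knock-out of the NF-kappaB subunit p65 (gene Rela; p65KO) and as a knock-out of the kinase IKK2, also called IKK beta (gene Ikbkb; IKK2KO). Each line was left untreated or was given the cytokine TNF alpha at 10 ng/ml for 45 or 90 min. All 3 lines are immortalised, and how they were immortalised or whether each is 1 clone is not given in the sources used here. Each of the 9 groups had 2 libraries of total RNA, here called a and b, and 18 libraries were read in all. Nothing says that a and b came from separate cultures, so each p-value reflects the spread between libraries alone, and that spread may be technical.

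Replication-dependent histone genes are transcribed mainly in S phase, when newly made DNA needs new nucleosomes. Most of their mRNAs have no introns and no poly(A) tail. They end instead in a conserved stem-loop that binds SLBP, the stem-loop binding protein, and that processing uses U7 snRNP. NPAT, in the histone locus body, switches the clusters on after cyclin E-CDK2 has acted on it. The mRNAs are degraded when replication stops, so their level follows the share of cells in S phase. A bulk library cannot tell a larger share of S-phase cells from more histone RNA per cell.

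The stem-loops are shown because they are the 3′ signal that sets these mRNAs apart from poly(A) mRNAs. A perfect stem of 6 bases, beginning with GG and ending with CC, was searched in the annotated transcripts (GENCODE M21, GRCm38, mRNA strand). Its loop of 4 bases had to read T, then C or T, then T, then any base. Such a stem-loop was found in 46 of the 67 genes (68.7%) and in 69 of 21884 other protein-coding genes (0.315%). Of the members with no match, 11 are annotated with their coding sequence alone, which leaves no 3′ end to search. Capitals mark the stem and lower case the loop, written as DNA.
Most frequent form outside H4, 26 members: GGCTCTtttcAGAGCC
Second form outside H4, 6 members: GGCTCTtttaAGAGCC
Most frequent form in H4, 7 members: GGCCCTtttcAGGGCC
H4 form with another loop, 2 members: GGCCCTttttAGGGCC
Rarer H4 stem, 2 members: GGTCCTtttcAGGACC
The 26 genes with the most frequent form held no H4 gene, and all of the GGCCCT and GGTCCT stems were in H4 genes. By class, the search matched 4 of 6 H1, 11 of 18 H2A, 10 of 18 H2B, 9 of 12 H3 and 12 of 13 H4 genes.

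Promoters were read from RefSeq (GRCm38.p6) as 250 bases before to 50 bases after each start, and 63 promoters of 62 members were matched. Both strands were searched for short motifs. The octamer ATTTGCAT, which OCT1 binds, was in 14 of the 63 (22.2%) against 1.74% of all 32851 promoters, in 7 of 18 H2A and 7 of 17 H2B promoters and in none of the other classes. CCAAT was in 54 (85.7%, against 37.4%), including every H1, H2A, H2B and H3 promoter but only 3 of 12 H4 promoters. TATAAA was in 35 (55.6%, against 13.6%). AAACACA, the H1 box, was in 5 of 6 H1 promoters and in 9 of the 63 (14.3%, against 7.18%). GGTCCG, part of the element that HINFP reads in H4 genes, was in 11 of 12 H4 promoters and in 13 of the 63 (20.6%, against 8.25%). For the kappaB motif, to which NF-kappaB binds, only 1 pattern of letters was searched. It was in 1 promoter, that of Hist1h3i (1.59%, against 1.63%). Other forms of the kappaB motif were not searched, so this count does not show that the other promoters lack kappaB sites. Overlap between matches was not counted, and a match describes letters, not a bound site.

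The 150 bases before the start are printed for 6 genes whose RNA is described here. They are the H1 gene with the clearest line difference, the low H2A gene of Hist3, the H2B gene with the clearest TNF difference, the H2B gene with the largest rise in p65KO, an H4 gene of Hist1, and Hist4h4. Capitals mark the motifs named above.
Hist1h1b, chr13:21780626-21780775, minus strand: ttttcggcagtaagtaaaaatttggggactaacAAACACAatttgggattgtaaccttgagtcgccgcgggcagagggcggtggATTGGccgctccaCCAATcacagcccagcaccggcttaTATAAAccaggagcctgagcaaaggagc
Hist3h2a, chr11:58954535-58954684, plus strand: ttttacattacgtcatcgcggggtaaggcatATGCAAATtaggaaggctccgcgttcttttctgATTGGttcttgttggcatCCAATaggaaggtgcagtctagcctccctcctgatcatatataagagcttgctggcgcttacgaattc
Hist2h2bb, chr3:96269550-96269699, plus strand: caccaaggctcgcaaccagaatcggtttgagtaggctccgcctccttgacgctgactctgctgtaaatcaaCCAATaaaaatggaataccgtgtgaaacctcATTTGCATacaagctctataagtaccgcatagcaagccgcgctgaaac
Hist1h2bp, chr13:21787338-21787487, plus strand: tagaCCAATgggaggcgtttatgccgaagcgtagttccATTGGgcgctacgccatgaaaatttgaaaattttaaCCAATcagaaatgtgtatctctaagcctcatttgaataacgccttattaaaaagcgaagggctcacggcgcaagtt
Hist1h4i, chr13:22041363-22041512, minus strand: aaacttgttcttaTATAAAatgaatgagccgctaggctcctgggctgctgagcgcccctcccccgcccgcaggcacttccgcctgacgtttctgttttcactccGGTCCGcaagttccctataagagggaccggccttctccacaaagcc
Hist4h4, chr6:136804432-136804581, minus strand: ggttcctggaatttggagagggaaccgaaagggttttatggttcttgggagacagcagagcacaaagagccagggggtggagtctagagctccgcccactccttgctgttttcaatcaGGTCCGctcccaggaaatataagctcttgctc
Hist3h2a and Hist2h2bb carry an octamer, while Hist1h2bp carries CCAAT boxes and no octamer in these letters. Both H4 promoters carry GGTCCG.

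The libraries held 16.7 to 23.5 M counts. Levels are CPM, the count of a gene per M counts of its library (M for mega), scaled by the trimmed mean of M-values (TMM). Rela stood at 63.2 to 110.5 CPM in WT, at 5.25 to 6.55 in p65KO and at 67.0 to 106 in IKK2KO. Ikbkb stood at 59.3 to 64.1 CPM in WT, at 42.7 to 46.2 in p65KO and at 40.2 to 44.7 in IKK2KO, so the whole-gene count checks the Rela label and does not check the Ikbkb deletion. The 12 fibroblast markers summed to 11010 to 11380 CPM in WT, 4620 to 4765 in p65KO and 11010 to 11440 in IKK2KO, most of it from Fn1, Vim and the collagen genes. Others were at or near 0: Fap reached at most 0.228 CPM and Lum 0.915 in any library, and Thy1 stood at 0 to 0.0495 in WT, 0 to 0.0415 in p65KO and 25.4 to 30.1 in IKK2KO. Of the 11 tested fibroblast markers, 2 were higher and 7 lower in untreated p65KO than in WT. Summed epithelial markers reached at most 3.231 CPM, endothelial markers 1.208, adipocyte markers 0.5869, myeloid markers 2.232, muscle markers 2.709 and neural markers 13.95, and the part of other cells in the results was not tested.

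Some libraries stood apart in their histone counts. In untreated WT, library a held more histone RNA (6258 CPM summed over members) than library b (5690). In untreated p65KO library a also held more (8906) than library b (8321). In IKK2KO at 45 min the order was 7430 in library a and 6724 in library b. For this pair the chi-square per degree of freedom over 63 members was 3.97, against 0.802 to 1.8 for the other groups. For TNF, counts of called members and medians that rest on these libraries are also given without them.

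Histone RNA took a larger share of the counts in both knock-outs. The 67 members made up 0.556 to 0.643% of all counts in the 6 WT libraries (median 0.575%), 0.874 to 0.956% in p65KO (0.926%) and 0.619 to 0.713% in IKK2KO (0.666%). The ranges of WT and p65KO did not overlap, and those of WT and IKK2KO did. After TMM scaling, which uses factors of 1.013 to 1.039 in WT, 1.051 to 1.091 in p65KO and 0.9001 to 0.921 in IKK2KO, the summed level in untreated cells was 6258 and 5690 CPM in WT, 8906 and 8321 in p65KO and 7553 and 7803 in IKK2KO. On this scale the WT libraries lay below all libraries of both knock-outs. Without these factors the log2 differences of untreated IKK2KO from WT are lower by nearly the same amount for the members and listed genes, and the median of all genes moves from -0.0303 to -0.211. Values of IKK2KO below are with TMM unless library totals alone are named.

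**Figure D1:**
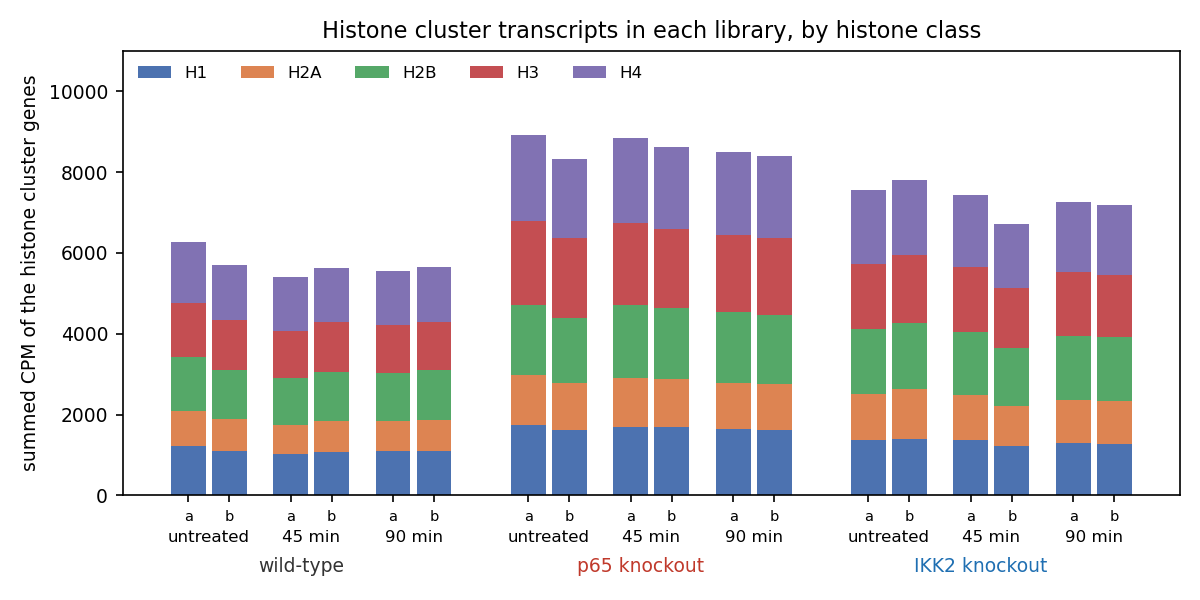
Summed level of the members (CPM, vertical axis from 0) in each of the 18 libraries, as 1 stacked bar per library with the 5 histone classes in colours. Every WT bar is lower than every IKK2KO bar and every p65KO bar is higher, with the H3 part of untreated cells at 1342 and 1229 CPM in WT, 2085 and 1976 in p65KO and 1621 and 1661 in IKK2KO.

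By class, H1 summed to 1161 CPM in untreated WT, 1689 in p65KO and 1390 in IKK2KO (means of 2 libraries). H2A went from 822.5 to 1186 and 1176, which was 1.44 and 1.43 times WT. H2B went from 1285 to 1678 and 1627. H3 showed the widest gap in p65KO, from 1286 to 2031, or 1.58 times WT, with 1641 in IKK2KO. H4 went from 1420 to 2030 and 1844. With TMM the class sums of untreated H2A and of H2B were close in the knock-outs, while those of H1 and H3 were farther apart. This closeness depended on the scaling. The median log2 difference of tested H2A genes in IKK2KO against p65KO was 0.087 with TMM and -0.119 with library totals alone. For tested H2B genes it was -0.071 and -0.276.

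Per kilobase of annotated exon, the members with the highest mean over all libraries were Hist2h2bb (669 CPM per kb), Hist2h2aa2 (461), Hist1h4f (418), Hist1h4k (411), Hist1h1b (399) and Hist1h3i (370). In each class the leading pair was Hist1h1b and Hist1h1e (218) for H1, Hist2h2aa2 and Hist1h2ak for H2A, Hist2h2bb and Hist1h2bb (251) for H2B, Hist1h3i and Hist1h3h (315) for H3, and Hist1h4f and Hist1h4k for H4. The lowest tested members were Hist2h2be (0.661), Hist3h2a (0.788) and Hist3h2ba (0.979). This order depends on the annotated length: per kilobase of coding sequence Hist1h4d came first (1187 CPM per kb) and Hist2h2bb next (674). Exons of Hist2h2bb overlap those of Gm42743 on the same strand, so that its reads may belong to either gene.

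Not all members could be tested. A filter on low counts kept 63 of the 67, and the other 4 had few or no counts over all 18 libraries: Hist2h3c1 had 0, Hist2h2aa1 3, the testis H1 gene Hist1h1t 10 and the testis H2A gene Hist1h2aa 5.95. Hist2h2aa1 shares 88.6% of its 76-base words with another gene and Hist2h2aa2 shares all of its own, so that single reads cannot place these genes with certainty. Words were compared only among the 70 rows that match the name pattern, pseudogenes included, so sharing with any other gene was not counted. Over the members a median of 36.8% of the words also occur in another of these rows, 26 members share more than 50% and 8 share none. Of the members' deposited values, 90.8% of those above 0 were fractional, against 31.8% over all rows, and 24 members overlap another gene's exons. Values of single members that share sequence are therefore uncertain.

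In untreated p65KO most histone genes were higher than in WT. A gene was called when its adjusted p from the quasi-likelihood F-test of edgeR was under 0.05 (Benjamini-Hochberg over 16322 genes). By this rule 54 of the 63 members were higher and 4 lower, against 39.8% of all genes tested higher and 41.1% lower. The median log2 difference of the members was 0.52, or 1.43-fold, where that of all genes was -0.0194. All 11 tested H3 genes were higher (median 0.69), as were all 13 H4 genes (0.52). Of H1, 4 of 5 were higher (0.36), of H2A 13 of 16 (0.47) and of H2B 13 of 18 (0.43), with 1 H2A gene and 3 H2B genes lower.

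Hist1h1b, a main H1 gene of dividing cells, had 228.8 and 217.2 CPM in the untreated WT libraries and 414.3 and 400.3 in p65KO. The groups lay far apart, with a log2 difference of 0.87 (SE 0.03, adjusted p = 7.17e-28). Hist1h2bp, an H2B gene, had 13.8 and 11.8 CPM in WT and 35.5 and 32.9 in p65KO. This was the largest rise of any member (1.42, SE 0.07, adjusted p = 7.36e-22). Hist1h4i, an H4 gene, had 35.9 and 33.1 CPM in WT and 74.6 and 68.2 in p65KO (1.05, SE 0.05, adjusted p = 1.07e-21). Hist1h2ai, an H2A gene, had 55.2 and 48.2 CPM in WT and 110.8 and 102.6 in p65KO (1.05, SE 0.07, adjusted p = 1.12e-09). Neither gene's groups overlapped. In Hist2, 7 of 8 tested members were higher, led by the H3 genes Hist2h3b (0.82) and Hist2h3c2 (0.76), then Hist2h2ac (0.64), Hist2h2aa2 (0.64), Hist2h4 (0.52), Hist2h2bb (0.52) and Hist2h2ab (0.49).

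The 4 lower members were Hist3h2a, Hist3h2ba, Hist2h2be and Hist1h2bn. Hist3h2a, the H2A gene of the Hist3 locus, had 2.54 and 1.68 CPM in WT and 0.228 and 0.166 in p65KO (log2 difference -3.36, SE 0.40, adjusted p = 3.99e-10). It rested on 91 counts in WT and 9 in p65KO, a ratio of 10.5 with a 95% counting interval of 5.32 to 23.8. Hist3h2ba, the H2B gene next to it, had 0.964 and 0.205 CPM in WT and 0.0913 and 0.0831 in p65KO, that is 24 and 4 counts in all (ratio 6.26, interval 2.15 to 24.8; adjusted p = 0.00112). WT library b alone was near the knock-out, and without WT library a the call was lost (log2 difference -1.18, adjusted p = 0.25). The pseudogene of that locus, Hist3h2bb-ps, had a log2 difference of -3.22 (adjusted p = 9.28e-05). The intervals cover counting error alone. Exons of Hist3h2a overlap those of Trim17 on the same strand, so that reads there may belong to either gene.

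Hist2h2be, an H2B gene known to make polyadenylated mRNA, had 2.38 and 2.18 CPM in WT and 1.51 and 1.41 in p65KO (-0.64, SE 0.21, adjusted p = 0.00628). The call was lost without p65KO library b (adjusted p = 0.051) and with DESeq2 (0.1). Hist1h2bn had 69.8 and 64.6 CPM in WT and 54.1 and 48.1 in p65KO (-0.39, SE 0.05, adjusted p = 2.08e-09). Both p65KO libraries lay below both WT libraries. The members that were not called were Hist1h1a (0.06), Hist1h2bj (0.00), Hist1h2bm (-0.02), Hist1h2ab (-0.05) and Hist1h2ap (0.10).

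**Figure D2:**
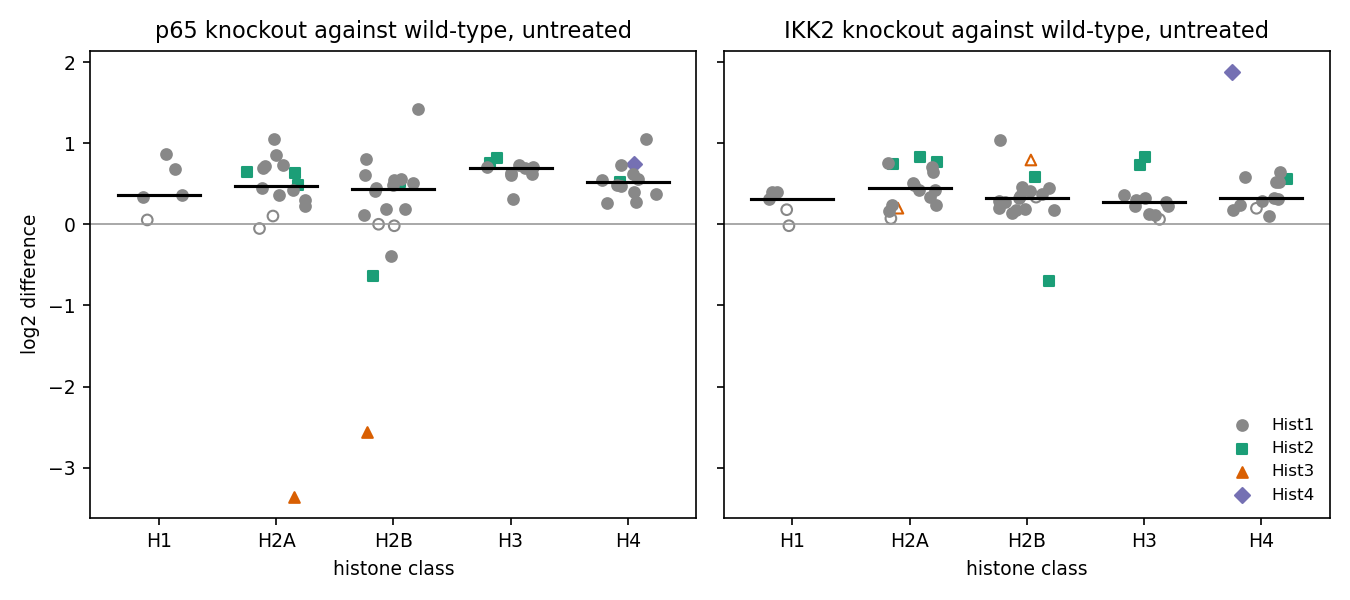
Log2 difference of each tested member from WT in untreated p65KO (left) and IKK2KO (right), by histone class, with the gene cluster as symbol, open symbols for members that were not called and a bar at each class median. Most points lie above 0 in both panels, Hist3h2a lies lowest in p65KO (-3.36) and Hist4h4 lies highest in IKK2KO (1.88).

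The same line difference was measured in the TNF-treated libraries, whose levels do not enter the untreated difference, although all libraries share the estimate of spread. At 45 min 59 members were higher and 4 lower in p65KO than in WT (all genes: 39.1% and 41.3%), with a median of 0.68. At 90 min it was 57 and 4 (39% and 40.7%), with a median of 0.64. Across the 3 times 54 members were higher each time and 4 were lower each time. With library totals alone in place of TMM, 54 members were higher and 4 lower in untreated cells (all genes: 40.8% and 40.1%). The TMM factors there were close, at 1.029 and 1.039 in WT and 1.055 and 1.051 in p65KO. This change of scaling could therefore move the values little, and it does not show how far the direction depends on scaling.

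In untreated IKK2KO the histone genes were also mostly higher than in WT, by a smaller amount and with a dependence on scaling. With TMM 54 of 63 were higher and 1 lower (all genes: 35.9% and 38.4%), with a median log2 difference of 0.33, or 1.25-fold. With library totals alone 36 were higher and 3 lower and the median was 0.15, with 27.5% of all genes higher and 47.3% lower. At 45 min 49 were higher and 1 lower (35.4% and 38.4%, median 0.34), or 34 and 3 with library totals alone (27.3% and 46.3%). At 90 min 52 were higher and 1 lower (35.4% and 37.7%, median 0.35), or 36 and 3 with library totals alone (27.2% and 46%). Both knock-outs were compared with the same WT libraries, so the 2 sets of differences are not independent of each other.

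Hist4h4, the only gene of the Hist4 locus and one known to make polyadenylated mRNA, differed most. It had 23.9 and 22.2 CPM in untreated WT and 83.0 and 86.5 in IKK2KO, a 3.69-fold difference (log2 1.88, SE 0.06, adjusted p = 2.15e-29). In p65KO it had 41.0 and 36.1 CPM (0.74, adjusted p = 5.26e-14), between the other lines with no overlap. With library totals alone the IKK2KO difference was 1.70.

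The Hist2 cluster was next. Hist2h2aa2, an H2A gene, had 185.8 and 163.3 CPM in WT and 302.7 and 317.0 in IKK2KO (0.83, SE 0.06, adjusted p = 3.45e-08). Hist2h3b, an H3 gene, had 100.6 and 91.6 CPM in WT and 167.6 and 173.2 in IKK2KO (0.83, SE 0.04, adjusted p = 1.85e-22). No library of one line reached the range of the other for either gene. The other higher Hist2 members were Hist2h2ab (0.77), Hist2h2ac (0.75), Hist2h3c2 (0.74), Hist2h2bb (0.59) and Hist2h4 (0.56). With library totals alone the same 7 were higher, at 0.38 to 0.65. The median over the 8 tested Hist2 members was 0.74 and over the 52 tested Hist1 members 0.31, or 0.56 and 0.13 with library totals alone. Summed, Hist2 went from 812.1 CPM in WT to 1330 in IKK2KO and 1267 in p65KO, and Hist1 from 5136 to 6260 and 7308. The difference between clusters was not tested.

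Within Hist1, Hist1h2bp rose most in IKK2KO, to 25.4 and 26.9 CPM (1.04, SE 0.08, adjusted p = 2.45e-15), followed by Hist1h2an (0.76) and Hist1h2ai (0.71). Hist2h2be was the only lower member, at 1.25 and 1.55 CPM (-0.70, SE 0.23, adjusted p = 0.00736). That call was lost without IKK2KO library a (adjusted p = 0.11) and with DESeq2 (0.097). Hist3h2a had 2.51 and 2.23 CPM in IKK2KO and overlapped WT (0.20, adjusted p = 0.449), and Hist3h2ba also overlapped (0.80, adjusted p = 0.0928). By class, 3 of 5 H1, 14 of 16 H2A, 15 of 18 H2B, 10 of 11 H3 and 12 of 13 H4 genes were higher. Under library totals alone these counts were 3, 11, 10, 3 and 9, so that the H3 count depended most on the scaling. The H1 genes Hist1h1c (0.18) and Hist1h1d (-0.02) were not called.

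**Figure D3:**
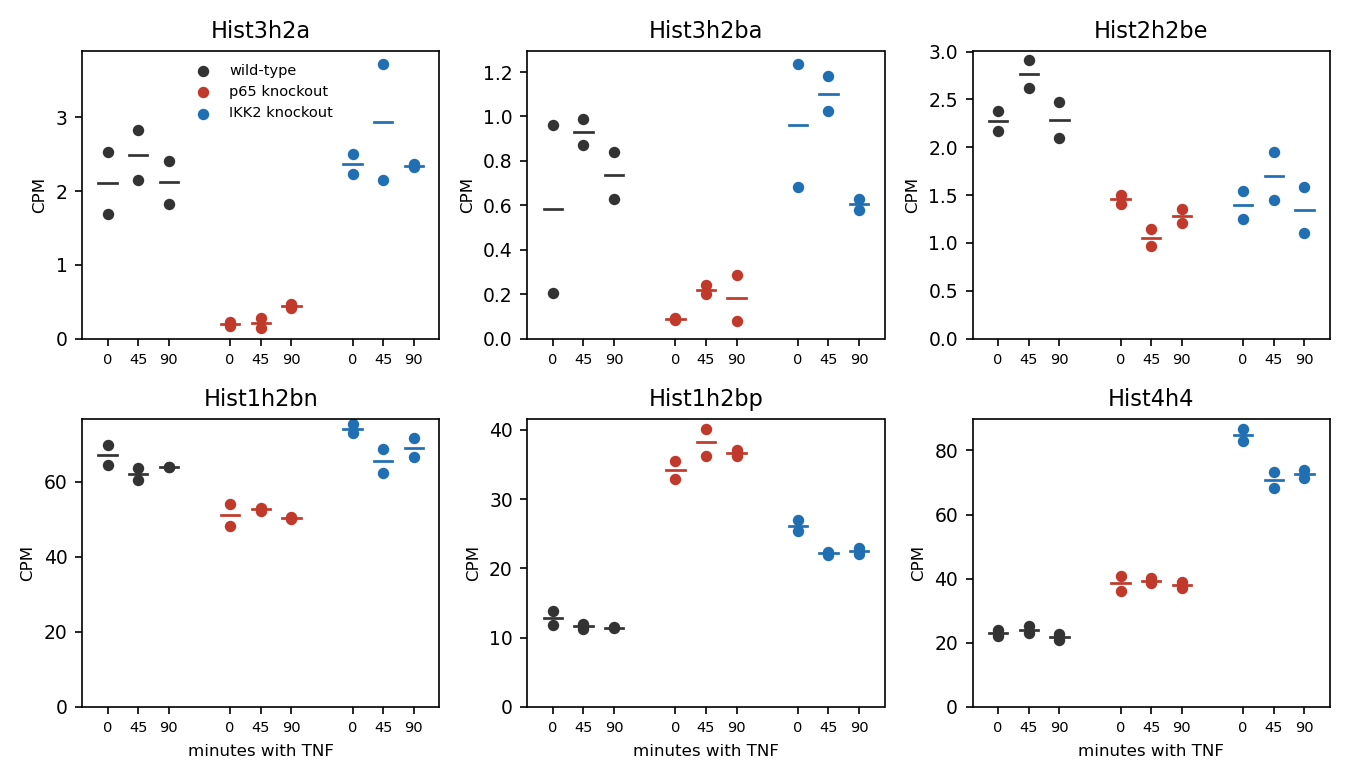
Level (CPM, vertical axes from 0) of Hist3h2a, Hist3h2ba, Hist2h2be, Hist1h2bn, Hist1h2bp and Hist4h4 by minutes with TNF in the 3 lines, with 1 point per library and a bar at the mean of each pair. Hist4h4 is highest in IKK2KO (68.3 to 86.5 CPM) and Hist3h2a is lowest in p65KO (0.15 to 0.47 CPM) at every time.

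Compared directly, IKK2KO was below p65KO for most histone genes that differed. In untreated cells 12 members were higher and 30 lower in IKK2KO (all genes: 35.5% and 36.9%), with a median of -0.12. With library totals alone the split was 5 and 45, with a median of -0.32. Over all genes it was then 27.1% and 47.2%, with a median of -0.203. At 45 min it was 8 and 41 (36% and 37.4%, median -0.29), or 3 and 55 with library totals alone (27.1% and 48.7%). At 90 min it was 6 and 39 (36.1% and 37.3%, median -0.23), or 5 and 55 with library totals alone (25.5% and 50.5%). In untreated cells the lowest members were the H3 gene Hist1h3f, with 223.1 and 214.0 CPM in p65KO and 144.4 and 142.3 in IKK2KO (-0.61, SE 0.03, adjusted p = 3.95e-20), then the H3 gene Hist1h3g (-0.55) and the H1 gene Hist1h1b (-0.47, adjusted p = 2.75e-18). At 45 and 90 min Hist1h2bp (-0.78 and -0.70) and Hist1h4i (-0.70 and -0.58) were lowest. The higher members in untreated cells were led by Hist3h2a (3.56, adjusted p = 1.56e-10), Hist3h2ba (3.36, adjusted p = 1.16e-05, with 4 counts in p65KO), Hist4h4 (1.14, adjusted p = 3.54e-23), Hist1h2bn (0.54) and Hist1h2bm (0.48). Hist2h3b (0.01) and Hist2h3c2 (-0.02) were not called in this comparison.

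Neighbouring genes did not always move together. H2A and H2B genes often lie head to head, sharing the stretch between their starts, and 11 such pairs were tested on both sides. Hist2h2ac and Hist2h2be, 239 bases apart, differed in sign in both knock-outs (0.64 and -0.64 in p65KO, 0.75 and -0.70 in IKK2KO). Hist2h2be rested on 100, 67 and 47 counts in untreated WT, p65KO and IKK2KO, and its calls were lost with DESeq2. Hist1h2ak and Hist1h2bn, 296 bases apart, were called in opposite directions in p65KO (0.72 and -0.39). Both were higher in IKK2KO with TMM (0.42 and 0.15), where Hist1h2bn was -0.035 with library totals alone. Hist1h2bn shares 71.6% of its 76-base words with other histone rows, so that its values are uncertain. Hist1h2an and Hist1h2bp, 243 bases apart, were both higher (0.69 and 1.42, then 0.76 and 1.04). Hist1h2bl and Hist1h2ai, 279 bases apart, were also both higher (0.81 and 1.05 in p65KO). The differences within pairs were not tested.

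Split by sequence features, the 43 tested members with a matched stem-loop had 37 higher and 2 lower in untreated p65KO (median 0.48), and the 20 without had 17 and 2 (0.60). The members known to make polyadenylated mRNA were Hist1h1c, Hist1h2bc, Hist2h2be, Hist3h2a, Hist3h2ba and Hist4h4. These 6 had 3 higher and 3 lower (median -0.22), beside 39.8% and 41.1% of all genes, and the other 57 had 51 higher and 1 lower (0.55). The 3 lower ones, Hist3h2a, Hist3h2ba and Hist2h2be, rested on 9, 4 and 67 counts in untreated p65KO. The calls of Hist3h2ba and Hist2h2be were lost without 1 library. In IKK2KO with TMM these 6 had 2 higher and 1 lower, and the others 52 higher and 0 lower (all genes: 35.9% and 38.4%). With library totals alone the 6 again had 2 higher and 1 lower (all genes: 27.5% and 47.3%). Fewer of all tested members were then higher, as given above. Members whose exons overlap another gene had a median of 0.49 in p65KO and the others 0.53. By sequence shared among the histone rows alone, the 12 members that share at most 10% of their 76-base words had a median of 0.43 in p65KO. The 26 members up to 50% had 0.49 and the 25 above 0.62, and in IKK2KO the medians were 0.35, 0.32 and 0.34. These splits are descriptions, and no difference between them was tested.

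Genes that act on histone genes and their mRNA were read from lists of their own. Their counts stand beside 39.8% of all genes higher and 41.1% lower in p65KO and 35.9% and 38.4% in IKK2KO. With library totals alone these shares were 40.8% and 40.1% in p65KO and 27.5% and 47.3% in IKK2KO. Slbp, whose protein binds the stem-loop, had 48.9 and 47.9 CPM in untreated WT, 86.1 and 86.1 in p65KO (0.83, adjusted p = 1.34e-22) and 75.4 and 76.1 in IKK2KO (0.65, adjusted p = 1.68e-17). Casp8ap2, encoding the locus body protein FLASH, had 43.8 and 46.3 CPM in WT, 92.0 and 92.0 in p65KO (1.03) and 75.3 and 76.1 in IKK2KO (0.74). Npat had 64.3 and 67.5 CPM in WT, 78.2 and 78.6 in p65KO (0.25) and 86.1 and 85.7 in IKK2KO (0.38). All 3 were called in both knock-outs. Coil, the coilin gene, was higher in both (0.39 and 1.21). Hinfp, the H4 gene factor, was lower in p65KO with TMM (-0.19), a call lost with library totals alone, and higher in IKK2KO (0.46). Of the 5 locus body genes tested, 4 were higher and 1 lower in p65KO, or 4 and 0 with library totals alone. In IKK2KO 5 were higher. Pou2f1, which encodes OCT1, was also higher in both (0.10 and 0.54).

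Of 11 tested genes of 3′ end processing, 6 were higher and 3 lower in each knock-out, or 5 and 4 in IKK2KO with library totals alone. With most genes called in these comparisons, 9 of 11 called is near the share over all genes. Besides Slbp, the cap-binding gene Ncbp1 (1.28 in p65KO and 0.94 in IKK2KO), Srrt (0.73 and 0.59) and Cstf2 (0.78 and 0.51) were higher in both, and Cpsf2, of the cleavage complex, was lower in both (-0.52 and -0.34). Cpsf3, the endonuclease gene, was lower in p65KO (-0.55) and higher in IKK2KO with TMM (0.28) but not called with library totals alone (0.105), and Ncbp2 was higher in p65KO (0.33) and lower in IKK2KO (-0.25). The U7 snRNP genes Lsm10 (0.38) and Lsm11 (-0.34) were called in p65KO and not in IKK2KO with TMM (-0.07 and -0.09), where Lsm11 was called lower with library totals alone (-0.27). Sympk was at 0.04, not called, in p65KO and higher in IKK2KO (0.83), and Zfp473 was at 0.34, not called, in p65KO and lower in IKK2KO (-4.31). Of the decay genes, the exonuclease gene Eri1 was higher in p65KO (0.47) and lower in IKK2KO (-0.25), and Upf1 was at -0.06, not called, in p65KO and lower in IKK2KO (-0.50).

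Genes of the cell cycle and of chromatin assembly were counted in the same way. Of 27 S phase genes, 25 were higher and 2 lower in untreated p65KO (median 0.75), led by the helicase subunit gene Mcm2 (1.48), and 22 higher and 2 lower in IKK2KO (0.49), or 18 and 3 with library totals alone. Of 15 genes of G2 and mitosis, 13 were higher and 1 lower in p65KO (0.53) and 10 and 2 in IKK2KO (0.22), or 6 and 5 with library totals alone. Of 11 histone chaperone genes, 9 were higher and 1 lower in p65KO and 7 and 2 in IKK2KO, or 6 and 3 with library totals alone, with Chaf1a, a subunit of the assembly factor CAF-1, higher in both (1.16 in p65KO). Of 11 replacement histones, whose mRNAs are polyadenylated and not tied to S phase, 5 were higher and 4 lower in p65KO (0.11) and 7 and 1 in IKK2KO (0.28), or 5 and 3 with library totals alone, with H2afz at 0.70 and 0.80. The p65KO split of the replacement histones was near that of all genes. Of 7 cell cycle brakes, 5 were higher and 2 lower in p65KO and 1 and 6 in IKK2KO under both scalings. Cdkn1a, which encodes the CDK inhibitor p21, had 187.9 and 191.2 CPM in WT, 4.11 and 5.07 in p65KO (-5.36) and 31.9 and 33.3 in IKK2KO (-2.54).

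RNA without a poly(A) tail was also read apart from the histones, since the libraries were made from total RNA. Of 12 such genes tested, 7 were higher and 2 lower in p65KO (all genes: 39.8% and 41.1%). In IKK2KO 8 were higher and 2 lower (35.9% and 38.4%), or 7 and 3 with library totals alone (27.5% and 47.3%). Rn7sk, the most abundant of them, stood at 5596 to 5867 CPM over the 6 WT libraries, 6162 to 7057 in p65KO and 6830 to 7131 in IKK2KO. Like the histones it was lowest in WT, and its part, and that of the S phase genes, in the histone differences was not tested.

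TNF moved histone RNA little in any line. In WT at 45 min 0 members were higher and 9 lower than in untreated cells (all genes: 5.73% and 6.45%), with a median of -0.12. At 90 min it was 0 and 4 (5.81% and 3.51%), with a median of -0.09. Between 45 and 90 min 0 were higher and 0 lower with edgeR (8.08% and 6.22%), 2 passed an unadjusted p under 0.05, and DESeq2 called 0. The lowest called values were small: Hist1h2ac (-0.22, adjusted p = 0.0376), Hist1h3g (-0.18, adjusted p = 0.00537) and Hist1h2bk (-0.17, adjusted p = 0.00708) at 45 min, and Hist1h3g (-0.20, adjusted p = 0.00319), Hist1h3e (-0.20, adjusted p = 0.00301) and Hist1h4b (-0.16, adjusted p = 0.0165) at 90 min.

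Hist1h3g, an H3 gene, had 77.2 and 79.5 CPM in untreated WT, 66.8 and 71.4 at 45 min and 67.9 and 68.8 at 90 min. Both treated pairs lay below both untreated libraries. Hist1h2bk, an H2B gene with an octamer, had 97.8 and 89.7 CPM untreated, 81.6 and 85.1 at 45 min and 85.0 and 87.8 at 90 min. Of the 13 tested H2A and H2B members with an octamer, 5 were lower at 45 min in WT. Of the 19 with a matched promoter and no octamer 0 were lower. The median log2 differences of these sets were close, at -0.13 and -0.116. At 90 min 1 and 0 were lower, with medians of -0.0893 and -0.11. The contrast of counts was read after the values were known and was not tested.

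These WT counts rested on single libraries. Without untreated library a, which stood above b, 2 members were called at 45 min (1 higher and 1 lower), and without untreated library b 24. Without library a of 45 min it was 0 and without library b 8. At 90 min the counts were 1 and 16 without untreated a or b, and 0 and 3 without treated a or b. The median at 45 min ranged from -0.203 to -0.036 over these fits and at 90 min from -0.177 to -0.022.

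In IKK2KO at 45 min 0 members were higher and 10 lower (3.33% and 5.43%), with a median of -0.13 that was -0.23 without library a of 45 min and -0.037 without library b. Hist4h4 was the lowest of those called. It had 83.0 and 86.5 CPM untreated, 73.2 and 68.3 at 45 min and 71.5 and 73.9 at 90 min (-0.26, adjusted p = 0.000134 and -0.22, adjusted p = 0.00197). Both treated pairs lay below both untreated libraries. Hist1h2bp went from 25.4 and 26.9 CPM to 22.3 and 22.0 at 45 min (-0.24, adjusted p = 0.0333), and Hist1h2bm from 53.6 and 55.6 to 48.8 and 44.9 (-0.22, adjusted p = 0.00268). At 90 min 0 were higher and 4 lower (3.36% and 1.12%, median -0.10), namely Hist1h2af (-0.24), Hist4h4, Hist1h3g (-0.16) and Hist2h3b (-0.14). From 45 to 90 min 4 were higher and 1 lower (10.1% and 5.59%): Hist1h2bk (0.16), Hist1h2bc (0.15), Hist2h2bb (0.14) and Hist1h2bg (0.13) rose and Hist1h1a (-0.13) fell.

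The libraries of IKK2KO at 45 min were those with the widest spread, and the count followed them. Without library a of 45 min 42 members were called and without library b 3. Without untreated library a it was 10 and without b 3. At 90 min the counts were 5 and 0 without untreated a or b, and 0 and 3 without treated a or b. From 45 to 90 min they were 11 and 7 without a or b of 45 min, and 2 and 7 without a or b of 90 min.

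In p65KO the direction was mixed. At 45 min 4 members were higher and 0 lower (1.17% and 0.49%), with a median of 0.03 that ranged from -0.038 to 0.081 when single libraries were left out. At 90 min 5 were higher and 6 lower (4.06% and 2.42%), with a median of -0.03 that was 0.01 with library totals alone, 0.036 without untreated library a and -0.096 without b. From 45 to 90 min 0 were higher and 2 lower (2.27% and 0.453%), Hist1h2bh (-0.15) and Hist1h1b (-0.12), and DESeq2 called 0.

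Hist2h2bb, an H2B gene, was the clearest rise in p65KO. Its exons overlap those of Gm42743 on the same strand and Gm20628 on the other, so that reads there may belong to another gene. Hist2h2bb had 279.0 and 264.8 CPM untreated, 319.2 and 309.8 at 45 min and 324.7 and 306.0 at 90 min (0.21, adjusted p = 5.35e-06 and 0.21, adjusted p = 1.02e-06). Hist1h4f, an H4 gene, had 191.8 and 180.1 CPM untreated, 214.4 and 206.1 at 45 min and 227.1 and 207.6 at 90 min (0.18, adjusted p = 0.00157 and 0.23, adjusted p = 8.75e-06). For both genes every treated library lay above both untreated ones. Hist2h4 (0.14) and Hist1h2bk (0.14) were the other rises at 45 min, and with Hist1h4i (0.17) they were also higher at 90 min (0.16 and 0.13).

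The 6 falls at 90 min in p65KO were Hist1h2ai, Hist1h3g, Hist1h3b, Hist1h3f, Hist2h3b and Hist1h1b. Hist1h2ai had 110.8 and 102.6 CPM untreated, 98.5 and 102.9 at 45 min and 86.4 and 86.4 at 90 min (-0.30, adjusted p = 0.0096). Hist1h3g had 129.0 and 122.2 CPM untreated, 118.7 and 112.0 at 45 min and 108.9 and 107.7 at 90 min (-0.21, adjusted p = 0.000205). Both stepped down with no overlap between untreated and 90 min. The others were Hist1h3b (-0.17), Hist1h3f (-0.16), Hist2h3b (-0.15) and Hist1h1b (-0.15), so that 4 of the 6 were H3 genes while the 5 rises were H2B and H4 genes.

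Leaving out single p65KO libraries gave 5, 1, 1 and 3 calls at 45 min (without untreated a, untreated b, treated a and treated b). At 90 min the same order gave 7, 8, 6 and 8, split into 6 higher and 1 lower, 2 and 6, 2 and 4, and 5 and 3. From 45 to 90 min these counts were 0 or 1.

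**Figure D4:**
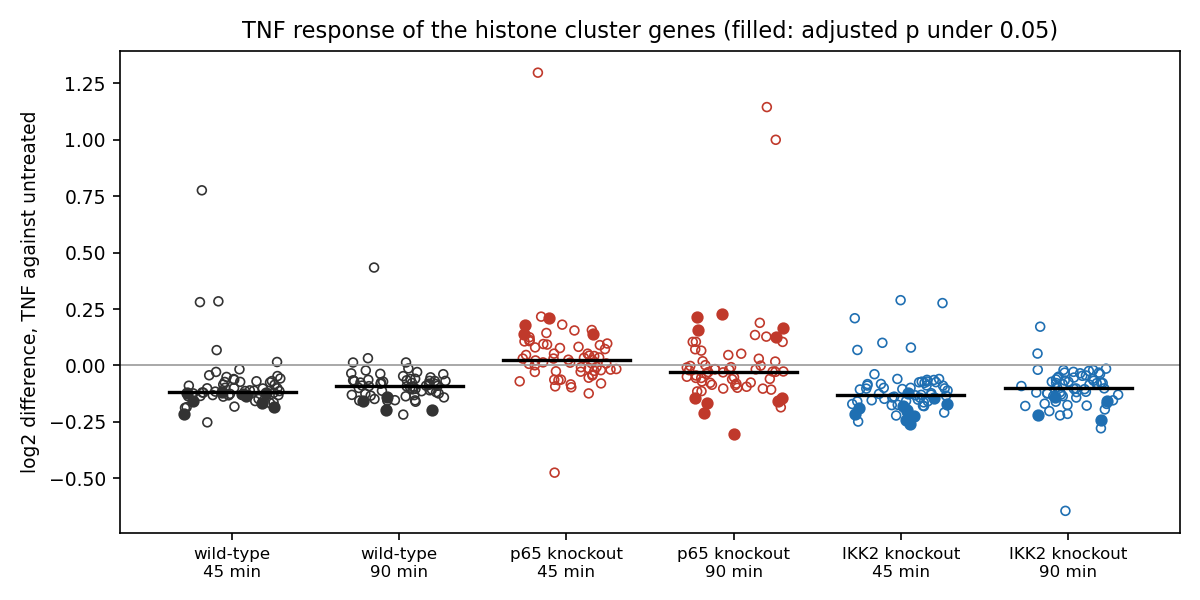
Log2 difference of each tested member between TNF-treated and untreated cells at 45 and 90 min (vertical axis) in WT, p65KO and IKK2KO, with filled symbols for called members and a bar at the median. The called members lie within -0.30 and 0.23, and the open points farthest from 0 were not called.

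The difference between lines in the TNF response was tested as a contrast of differences. For p65KO against WT at 45 min 10 members were higher and 0 lower (3.47% and 3.61%), with a median of 0.14 that was 0.056 without untreated WT library a and 0.223 without b. At 90 min 5 were higher and 0 lower (1.92% and 3.47%), with a median of 0.06 that was -0.005 without untreated WT library a and 0.139 without b, so that its sign rested on that library. Hist2h2bb led at 45 min (0.33, SE 0.04, adjusted p = 2.63e-07) and was also called at 90 min (0.31, adjusted p = 2.29e-06). In WT it had 193.3 and 186.1 CPM untreated, 171.7 and 176.2 at 45 min and 176.0 and 179.8 at 90 min, so it fell in WT at 45 min (-0.12, adjusted p = 0.00679) and rose in p65KO. Hist1h4f had 149.2 and 138.6 CPM in untreated WT, 137.6 and 139.7 at 45 min and 134.7 and 135.1 at 90 min, and its response differed by 0.23 at 45 min (adjusted p = 0.00247) and by 0.32 at 90 min (adjusted p = 2.87e-05).

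Leaving out untreated WT library a reduced the count at 45 min to 4 and leaving out b raised it to 20. Over the other libraries it was 5 to 15, at the lower end without library a of WT at 45 min or untreated library b of p65KO, and at 15 without untreated library a of p65KO. At 90 min the count ranged from 3 to 9, with 9 without untreated library b of WT and 8 without untreated library a of p65KO.

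For IKK2KO against WT at 45 min 0 members were higher and 1 lower (2.05% and 2.82%). This was Hist4h4 (-0.33, SE 0.09, adjusted p = 0.0167), which had 23.9 and 22.2 CPM in untreated WT, 25.1 and 22.9 at 45 min and 22.8 and 20.9 at 90 min. The call was lost with DESeq2, without untreated library b or 45 min library a of WT, and without untreated library b or 45 min library b of IKK2KO. At 90 min 0 were higher and 0 lower with edgeR (0.833% and 1.52%), 2 passed an unadjusted p under 0.05, and DESeq2 called 0.

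**Figure D5:**
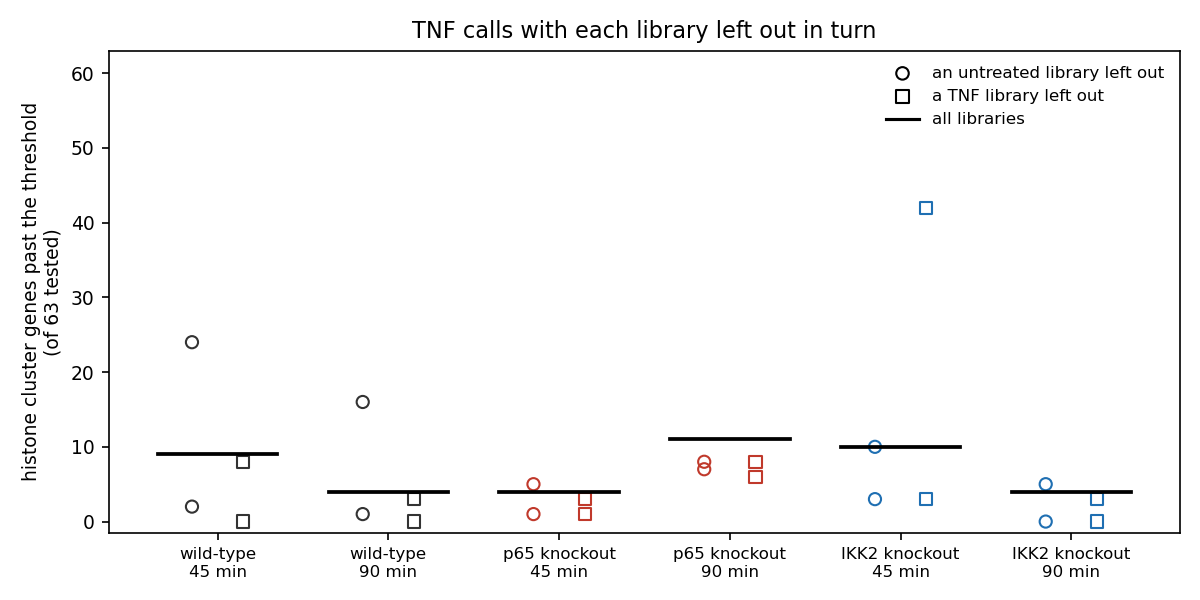
Number of the 63 tested members called for TNF against untreated in each line and time (vertical axis), with all libraries (bars) and with 1 untreated (circles) or TNF-treated (squares) library left out. The count of IKK2KO at 45 min runs from 3 to 42 around 10, and that of WT at 45 min from 0 to 24 around 9.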

How the data were processed

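RNA of 18 libraries was measured. The authors deposited a raw count table, whose unit was taken to be expected counts because many values are fractional. Per the labels' protocols and the submitters' processing notes, RNA was taken with Trizol and columns, prepared with a directional kit, read as 76-base pairs, aligned to GRCm38 with HISAT2 and counted with featureCounts (Subread 1.6.2). FastQC 0.11.8, Trimmomatic and edgeR 3.26.4 are also named there. How strand and multi-mapping reads were treated is not stated there, which bears on single members that overlap or resemble other genes.

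The expected counts were rounded, filtered with filterByExpr (16322 genes, 0.0601% of counts lost) and scaled by TMM. Under R 4.3.3, edgeR 4.0.16 fitted a robust quasi-likelihood model over all 18 libraries with a term for each group and tested 22 contrasts, with 9 residual degrees of freedom and Benjamini-Hochberg adjustment at 0.05 within each contrast. DESeq2 1.42.0, its size factors, library totals alone (chosen after seeing the data), no filter, no rounding, only the groups compared, and each library left out were the alternatives. Low counts were compared by an exact binomial interval. Levels per kilobase used the annotated exon length or, chosen after seeing the data, the coding length.

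Members and lists were chosen with earlier results of these data known. Named members were the top 2 per class per kilobase, the 3 largest called changes per direction and contrast, those of Hist2, Hist3 and Hist4, and called members against the main direction. Of other lists, every gene of the locus body, processing and decay lists, and otherwise the most abundant and most changed genes, could be named. Members shown for head-to-head pairs, TNF differences and lost calls were added after their values were seen. The pipeline was tested on simulated data. Figures used Python 3.11.15 and matplotlib 3.10.9.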

Additional observations from a re-analysis of the deposited data

Results flagged for a closer look

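The response of 10 members to TNF at 45 min differed between p65KO and WT by the test of the difference itself, always with the higher value in p65KO. The log2 differences were 0.33 for Hist2h2bb, 0.31 for Hist1h2bk, 0.30 for Hist1h4i, 0.29 for Hist1h2ac, 0.27 for Hist1h4b, 0.26 for Hist1h2ae, 0.23 for Hist1h4f, 0.20 for Hist2h4, 0.19 for Hist1h3c and 0.17 for Hist1h2bb. At 90 min 5 members differed, with 0.32 for Hist1h4f, 0.31 for Hist2h2bb, 0.25 for Hist2h4, 0.24 for Hist1h2bk and 0.23 for Hist1h4b. All 5 were also among the 10 at 45 min, and both times share their untreated libraries. Between IKK2KO and WT, the response of Hist4h4 at 45 min differed by -0.33.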

How the results depend on the processing

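No paired analysis was possible because the columns of the count table carry no replicate number. DESeq2 size factors and unrounded values left all 22 counts of called members within 1.5 times, and the cause of the shifts below was not tested. For TNF at 45 min in WT, p65KO and IKK2KO and at 90 min in the same order, DESeq2 called 3, 2, 5, 2, 7 and 1 members. In that order it called 1.72, 0.403, 1.06, 2.1, 1.12 and 1.33% of 30522 genes higher. Called lower were 1.97, 0.163, 1.79, 0.828, 0.43 and 0.194%. From 45 to 90 min DESeq2 called 0 members in p65KO (all genes: 0.575% higher and 0.0448% lower) and 1 in IKK2KO (3.49% and 1.65%). For the p65KO response difference it called 5 at 45 min (1.29% and 1.26%) and 3 at 90 min (0.528% and 1.29%). For that of IKK2KO at 45 min it called 0 (0.758% and 0.908%). Without a filter, counts were 20 (WT 45 min), 11 (WT 90 min), 2 (WT 45 to 90 min), 17 (p65KO 90 min), 24, 14 and 8 (IKK2KO 45, 90 and 45 to 90 min), 17 and 10 (p65KO difference) and 1 (IKK2KO difference, 90 min). In that order 2.84, 3.11, 4.28, 2.12, 1.77, 1.67, 4.92, 1.88, 1.05 and 0.465% of 30522 genes were higher. Lower were 3.46, 1.86, 3.02, 1.17, 2.74, 0.672, 2.98, 1.92, 1.79 and 0.911%. With only the groups compared the counts of members were 16, 12 and 3 in WT and 8, 17 and 6 in p65KO. They were 16 in IKK2KO at 90 min and 16 for the p65KO difference at 45 min. Shares over all genes are not given for this setting. With library totals alone 13 members were called in WT at 90 min (all genes: 4.35% higher and 5.21% lower). From 45 to 90 min in WT it was 1 (6.46% and 7.85%), and for the p65KO difference at 90 min 11 (5.64% and 2.12%). Directions of the member counts in this paragraph are not given.

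With single libraries left out, untreated, 45 min and 90 min counts were 54 to 59, 62 to 63 and 59 to 61 for p65KO against WT. They were 46 to 57, 43 to 57 and 46 to 51 for IKK2KO against WT, and 36 to 39, 44 to 54 and 40 to 44 for IKK2KO against p65KO. For TNF at 45, 90 and 45 to 90 min they were 0 to 24, 0 to 16 and 0 to 1 in WT, 1 to 5, 6 to 8 and 0 to 1 in p65KO, and 3 to 42, 0 to 5 and 2 to 11 in IKK2KO. The response differences gave 4 to 20 and 3 to 9 for p65KO and 0 to 1 at each time for IKK2KO.

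Library totals alone reversed 17 single values, all involving IKK2KO. Against WT these were Hist1h2af (-0.01), Hist1h2bb (-0.002), Hist1h2bn (-0.035), Hist1h3f (-0.06), Hist1h3g (-0.054) and Hist1h4f (-0.075) untreated, Hist1h3f (-0.037) at 45 min, and Hist1h2bn (-0.059), Hist1h3f (-0.019), Hist1h3g (-0.004) and Hist1h4f (-0.046) at 90 min. Against p65KO they were Hist1h2bf (-0.074), Hist1h2bj (-0.027), Hist2h2aa2 (-0.01) and Hist2h2bb (-0.136) untreated, Hist1h2bm (-0.054) at 45 min and Hist1h1a (-0.074) at 90 min. With 2 libraries a group, changes of the size of the TNF responses were near the limit of what could be called.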
